A study of Drosophila melanogaster with 24 samples.

Results

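The change in RNA level from 24 to 50 h after larval hatching was compared between neuroblasts of the antennal lobe (AL) lineage and neuroblasts of the mushroom body (MB) lineage of Drosophila melanogaster. The question was which early age changes ran ahead or behind in AL. The measure was a difference of differences on the log2 scale, the AL change (50 h minus 24 h) minus the MB change (50 h minus 24 h). A positive value means a larger rise, or a smaller fall, in AL. It used 12 of the 24 libraries of the series, 3 in each of 4 groups: AL at 50 h, AL at 24 h, MB at 50 h and MB at 24 h. Of the 15339 genes in the deposited count table, 10324 had enough counts to be tested.

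Neuroblasts are stem cells from which the neurons of the fly brain arise. They divide asymmetrically, and the identity of the neurons they produce changes with the age of the neuroblast through temporal factors, among which the RNA-binding proteins Imp and Syp act as opposing regulators of early and late fates. The AL is the first olfactory relay of the fly brain, the MB is its centre of olfactory learning, and these lineages pass through their temporal sequences at different speeds. The steroid hormone ecdysone, insulin and nutrient signals, and ligands of the TGF-beta superfamily are known to act on larval neuroblasts.

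Each library was made from a pool of 89 to 121 GFP-labelled cells collected with a robotic sorter, from larvae raised at 25 °C and staged to within 2 h. Brains were dissected in lots of 30. The labels give no genotype, sex or driver of the GFP, and whether the 3 libraries of each group had independent origins is not stated. P-values therefore measure a spread between libraries that may be technical, and this spread was estimated over all 24 libraries of the series. Total gene counts were 7771032 to 8947555 in AL at 50 h, 6064190 to 7307996 in AL at 24 h, 3150371 to 4161921 in MB at 50 h and 4594641 to 5393491 in MB at 24 h. A count of 0 allows up to 3 counts, which is 0.335 to 0.952 CPM (counts scaled to a common library size with TMM factors) in these libraries, and this limit covers counting error only. Log2 CPM correlated across genes at 0.913 to 0.94 within groups and at 0.869 to 0.922 across groups, a description over genes only.

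The labels were checked against markers. The summed level of the 8 neuroblast markers averaged 5063 CPM in AL at 50 h, 4817 CPM in AL at 24 h, 3435 CPM in MB at 50 h and 4424 CPM in MB at 24 h. The 5 MB markers (ey, toy, dac, Rx and tll) summed to 73.8 and 36.6 CPM in AL at 50 and 24 h, against 646 and 677 CPM in MB. Of the 6 AL markers, the homeobox gene ems averaged 100 and 148 CPM in AL, against 0.597 and 0.0601 CPM in MB. The homeobox gene oc went against the list, with 10.5 and 2.44 CPM in AL and 297 and 358 CPM in MB, so the summed AL list was higher in MB. The AL marker vvl averaged 143 and 94.9 CPM in AL, against 185 and 58.1 CPM in MB. The AL markers acj6, unpg and Lim1 averaged at most 7.17 CPM in each group. Among these 6 markers, the check of the AL label therefore rests on ems. Of the 8 glia markers, the master regulator gene repo averaged 0.0499 and 3.49 CPM in AL at 50 and 24 h, against 1.27 and 0.402 CPM in MB. The glia list summed to 474 to 518 CPM in AL at 50 h and 444 to 635 CPM in AL at 24 h. In MB it summed to 492 to 510 CPM at 50 h and 514 to 587 CPM at 24 h. Most of this came from nrv2 (285 to 419 CPM as group means) and Eaat1 (126 to 200 CPM). The haemocyte marker eater averaged at most 0.12 CPM in each group. The 8 haemocyte markers summed to 20 to 37.7 CPM in AL at 50 h, 18 to 82.2 CPM in AL at 24 h, 22.8 to 33.3 CPM in MB at 50 h and 21.4 to 48.2 CPM in MB at 24 h. The 5 markers of newborn neurons and ganglion mother cells summed to 66.9 to 79.6 CPM in AL at 50 h, 49.8 to 63 CPM in AL at 24 h, 74.5 to 108 CPM in MB at 50 h and 109 to 132 CPM in MB at 24 h. In these bulk samples, fewer cells of a type and less RNA per cell cannot be told apart.

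The early change differed between the lineages for 250 of 10324 genes (2.42%) at an adjusted p under 0.05 in the quasi-likelihood test of edgeR. The AL change was the higher one for 201 genes (1.95%) and the lower one for 49 genes (0.475%), and 1341 genes passed an unadjusted p of 0.05. Among the 201 genes the median log2 difference was 1.47, with quartiles of 0.96 and 2.36, and 173 had a positive AL value together with a negative MB value. Among the 49 genes the median was -1.90, and 40 had a negative AL value together with a positive MB value. The median over all genes tested was -0.02. The AL change itself passed its own test for 382 genes (3.7%) and the MB change for 366 genes (3.55%), and these 2 comparisons use the same libraries as the difference, so their values are given beside it as its components. Without MB 50 h replicate 2, 142 genes were higher and 30 lower, and the MB change passed for 140 genes. The MB change passed for 175 genes without MB 24 h replicate 3 and for 217 without MB 24 h replicate 2.

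The split between higher and lower calls depended on the processing. It was 80.4% higher in the main test, against 65.4% (251 higher, 133 lower) with DESeq2, 68.2% (285 and 133) without a filter on low counts, and 65.8% (96 and 50) with limma on log2(TPM + 1), where TPM is a level per transcript length, and 64% (89 and 50) on log2(TPM + 0.1). Spike-in RNA took 0.388% to 0.469% of counts in AL at 50 h and 0.627% to 0.789% in AL at 24 h, against 0.718% to 0.945% in MB at 50 h and 0.315% to 0.353% in MB at 24 h. Scaling by spike-in, with or without the number of cells, moved the median difference of all genes to 1.42 (with cell number) or 1.66 (without), and calls became 3757 higher and 45 lower (98.8% higher), or 4869 higher and 44 lower (99.1% higher). Of the 250 genes, 232 and 227 kept their sign under these scalings. Both scalings shift the values upward, so a higher call could hardly turn. The genes that turned are therefore to be read against the 49 lower calls, not against all 250, and are a large part of them. Among the named lower calls, fru, Rpn1, Hsp83, Ncc69, lgs and w turned positive under both. The cell numbers labelled for AL at 24 h (106, 108 and 101) are identical to those labelled for the AL libraries of 84 h, so the scaling with cell number may rest on a wrong set. On the TPM scale the median was -0.14. All directions given here are therefore relative to the median gene.

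**Figure D1:**
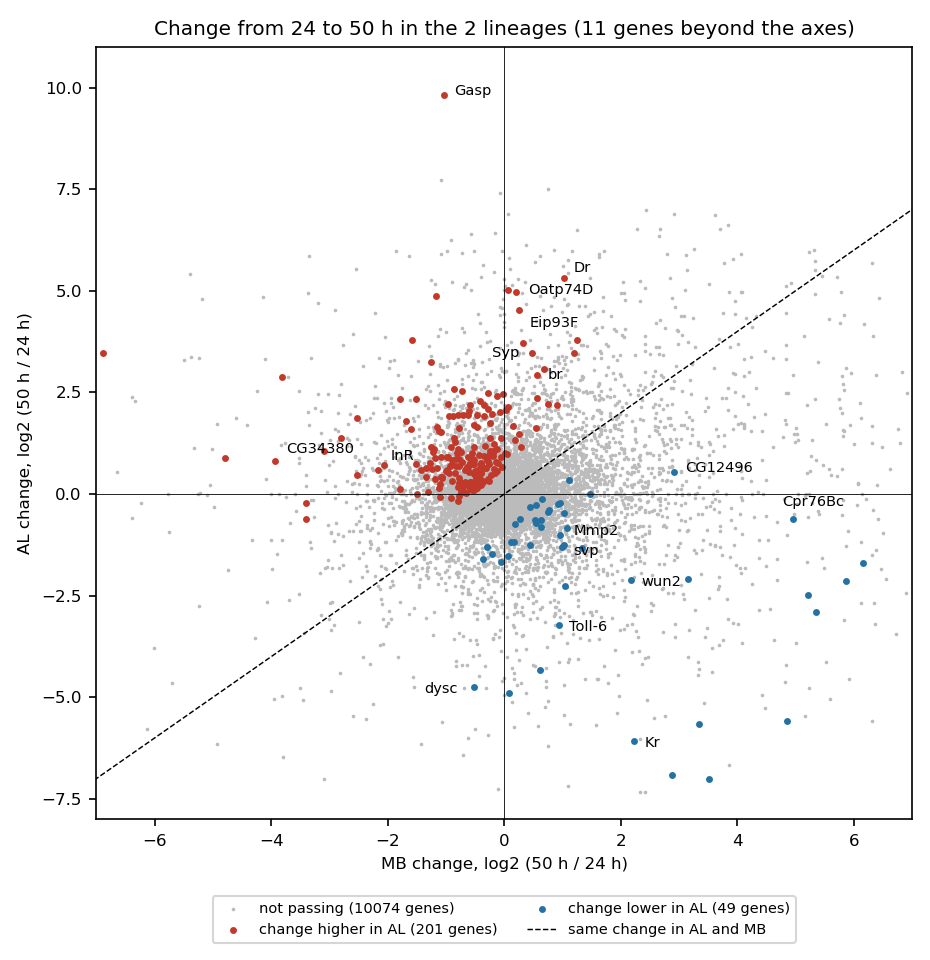
Each point is a gene tested, with its MB change from 24 to 50 h on the horizontal axis and its AL change on the vertical axis, both as fitted log2 values. The 201 genes whose change was higher in AL lie above the dashed line of equal change and the 49 genes whose change was lower in AL lie below it, mostly in the quadrants where one lineage has a positive value and the other a negative one.

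Temporal factors held the most calls for their number: of the 16 tested, the AL change was higher for Syp, br, Eip93F and grh and lower for Kr and svp, so 37.5% of the list was called, against 2.42% of all genes. The list contains Imp and Syp, the subject of the series title, so it was not chosen independently of these libraries. The median difference of the list was 0.30, although its median change was -0.29 in AL and -0.02 in MB, so the sign of the gap between these medians is the opposite.

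Syp, which encodes an RNA-binding protein of late neuroblasts (chromosome 3R, 16582451 to 16631963, dm3), had 15071, 15200 and 16843 CPM in AL at 50 h and 769, 2015 and 1477 CPM in AL at 24 h. Syp had 1639, 1476 and 1765 CPM in MB at 50 h and 1114, 1110 and 1288 CPM in MB at 24 h. It rose 11.1-fold in AL, while the MB ratio of 1.39 did not pass the test, and the log2 difference was 2.99 ± 0.32 (SE; adjusted p = 1.7e-05). At 24 h the libraries of the 2 lineages overlapped, and at 50 h every AL library was above every MB library. In libraries of the series outside the comparison, Syp averaged 4777 CPM in AL at 36 h and 28847 CPM in AL at 84 h, and 5756 CPM in MB at 84 h and 10677 CPM in MB at 36 h in the pupa, so the pupal MB mean was still below that of AL at 50 h.

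The zinc finger gene br, an early ecdysone response gene (chromosome X, 1516765 to 1539195), had 537, 566 and 601 CPM in AL at 50 h and 74.8, 71.3 and 76.0 CPM in AL at 24 h. br had 78.4, 119 and 57.3 CPM in MB at 50 h and 50.6, 59.7 and 61.8 CPM in MB at 24 h. Its log2 difference was 2.37 ± 0.26 (adjusted p = 1e-07), with no overlap between AL ages and overlapping MB ages. In MB at 84 h, br averaged 517 CPM, close to its AL level at 50 h. Eip93F, which encodes an ecdysone-induced transcription factor (chromosome 3R, 17801348 to 17837910), had 145, 176 and 251 CPM in AL at 50 h and 4.58, 9.53 and 10.8 CPM in AL at 24 h. Eip93F had 4.14, 5.88 and 4.55 CPM in MB at 50 h and 4.33, 2.57 and 5.46 CPM in MB at 24 h. It rose 23-fold in AL, the log2 difference was 4.27 ± 0.65 (adjusted p = 0.00064), and the lineages overlapped at 24 h but not at 50 h. The AL mean at 84 h was 1029 CPM and the MB mean at 84 h 117 CPM. The grainyhead gene grh, a factor of larval neuroblasts, had a smaller log2 difference of 0.72 ± 0.17 (adjusted p = 0.0082), made of 0.24 in AL, which did not pass, and a fall by 0.48 on the log2 scale in MB.

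Kr and svp, which act early in the temporal sequences of embryonic neuroblasts, ran the other way. The zinc finger gene Kr (chromosome 2R, 21114134 to 21117042) had 2.72, 0.749 and 1.30 CPM in AL at 50 h and 91.3, 96.7 and 140 CPM in AL at 24 h. Kr had 4.44, 9.80 and 25.2 CPM in MB at 50 h and 0.36, 4.92 and 3.33 CPM in MB at 24 h. It fell 67.9-fold in AL, and the log2 difference was -8.31 ± 1.30 (adjusted p = 0.00078). AL libraries were above all MB libraries at 24 h and below all of them at 50 h, while the MB ages overlapped. The nuclear receptor gene svp (chromosome 3R, 8106874 to 8128507) had 384, 322 and 244 CPM in AL at 50 h and 771, 732 and 831 CPM in AL at 24 h. svp had 107, 62.2 and 96.6 CPM in MB at 50 h and 39.7, 42.8 and 50.8 CPM in MB at 24 h. Both of its own changes passed in opposite directions, a 2.46-fold fall in AL and a 2.00-fold rise in MB, and the log2 difference was -2.29 ± 0.37 (adjusted p = 0.00058). AL stayed above MB at both ages.

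Imp, which encodes the RNA-binding protein of early neuroblasts (chromosome X, 10690246 to 10700889), had 21451, 16120 and 15411 CPM in AL at 50 h and 27297, 36148 and 33867 CPM in AL at 24 h. Imp had 9892, 7840 and 9830 CPM in MB at 50 h and 11045, 10982 and 11846 CPM in MB at 24 h. It fell in AL (log2 -0.88, adjusted p = 1.5e-05), the MB value of -0.30 did not pass (adjusted p = 0.22), and the difference of -0.58 ± 0.17 did not pass either (adjusted p = 0.07). This difference stood close to the threshold: its adjusted p ranged from 0.002 to 0.088 under the settings that left out no replicate, and the sign turned to 0.84 and 1.08 with the spike-in scalings, both below the median gene. Without AL 24 h replicate 1, AL 50 h replicate 1 or MB 50 h replicate 2 it passed, with log2 values of -0.68, -0.74 and -0.67. The differences of chinmo (0.42, adjusted p = 0.65), lin-28 (-0.01, adjusted p = 1), cas (-3.11, adjusted p = 0.078), D, ab, mamo, hb, nub and pdm2 did not pass. Of these, mamo, hb, nub and pdm2 averaged at most 5.37 CPM in each of the 4 groups, which leaves little depth to detect a difference. The zinc finger gene cas had 8.59, 22.6 and 11.5 CPM in AL at 50 h and 37.1, 35.7 and 20.9 CPM in AL at 24 h. cas had 35.2, 70.3 and 50.1 CPM in MB at 50 h and 1.62, 17.3 and 21.9 CPM in MB at 24 h, and it averaged 569 CPM in AL at 36 h, an age between the 2 compared here.

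**Figure D2:**
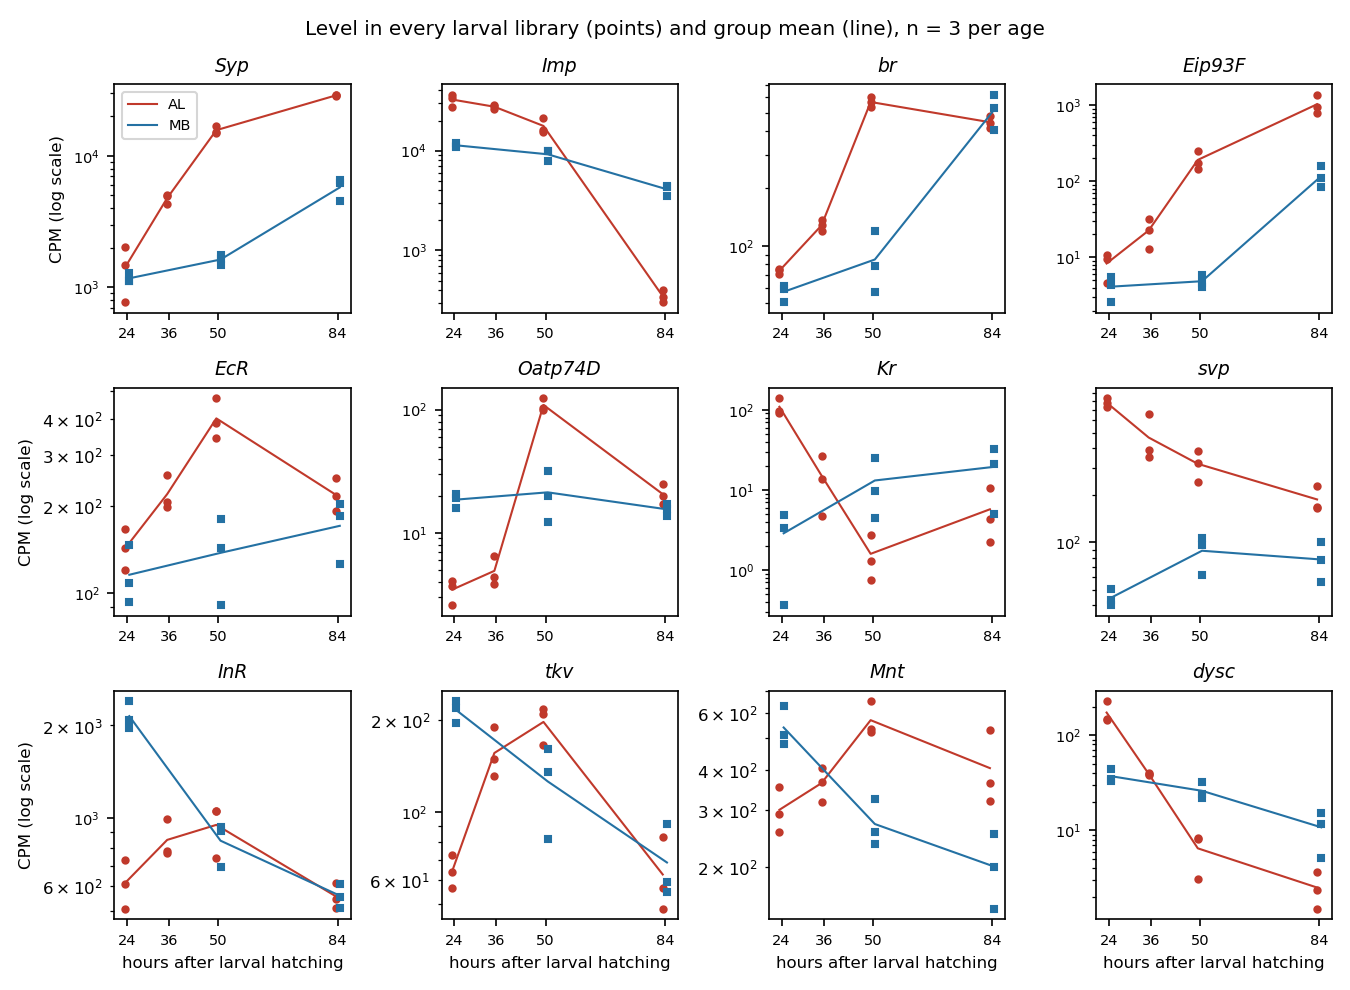
Levels of 12 genes in every larval library (points; circles AL, squares MB) against hours after larval hatching, on log axes of CPM, with lines through the group means of 3 libraries. AL at 50 h stands apart from MB at 50 h for Syp, br, Eip93F, EcR and Oatp74D. The lineages cross between 24 and 50 h, with AL rising for Oatp74D, tkv and Mnt and falling for Kr and dysc. For InR, AL meets MB from below.

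Genes of the ecdysone pathway carry the hormone signal from import through the nuclear receptor to its targets. Of the 21 tested, 4 were called, all with the higher change in AL: br, Eip93F, EcR and tai (19% of the list, against 2.42% of all genes). Of these, br and Eip93F are also counted among the temporal factors, so the shares of the 2 lists are not separate results. EcR, which encodes the ecdysone receptor and was added after its values were seen, had 471, 344 and 387 CPM in AL at 50 h and 120, 143 and 167 CPM in AL at 24 h. EcR had 143, 90.9 and 181 CPM in MB at 50 h and 93.4, 109 and 147 CPM in MB at 24 h. Its log2 difference was 1.24 ± 0.29 (adjusted p = 0.0094). AL at 50 h lay above all other libraries, and the other 3 groups overlapped. The coactivator gene tai had a log2 difference of 0.97 ± 0.21 (adjusted p = 0.0044).

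Outside the list, Oatp74D, which encodes the transporter that carries ecdysone into cells (chromosome 3L, 17480218 to 17504793), was among the highest differences of all. It had 100, 103 and 124 CPM in AL at 50 h and 4.10, 3.69 and 2.57 CPM in AL at 24 h. Oatp74D had 19.8, 12.3 and 31.9 CPM in MB at 50 h and 16, 20.8 and 19.0 CPM in MB at 24 h. AL rose 31.4-fold, lying below MB at 24 h and above it at 50 h, and the log2 difference was 4.77 ± 0.50 (adjusted p = 5.9e-09). Its AL mean was 4.91 CPM at 36 h and 20.6 CPM at 84 h, so the 50 h level was the highest of the 4 AL ages. Eip75B, another ecdysone-induced nuclear receptor gene, rose in both lineages (log2 2.08 in AL and 0.88 in MB), and its difference of 1.20 did not pass (adjusted p = 0.069). The differences of usp, the partner of EcR (-0.10), of ftz-f1 (0.21) and of Eip74EF (-0.64) did not pass.

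In the insulin and TOR list, which runs from the receptor through Akt to growth control, 4 of 21 genes were called, all higher in AL: InR, foxo, scyl and Akt1 (19%, against 2.42% of all genes). The insulin receptor gene InR (chromosome 3R, 17398221 to 17415913) had 1054, 744 and 1051 CPM in AL at 50 h and 507, 609 and 729 CPM in AL at 24 h. InR had 932, 692 and 909 CPM in MB at 50 h and 1961, 2077 and 2397 CPM in MB at 24 h. It rose 1.54-fold in AL and fell 2.54-fold in MB, with a log2 difference of 1.97 ± 0.20 (adjusted p = 5.9e-09). MB lay above AL at 24 h, and the lineages overlapped at 50 h.

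The transcription factor gene foxo, whose product is held back by insulin signalling, had 75.2, 69.5 and 78.2 CPM in AL at 50 h and 11.1, 26.0 and 20.6 CPM in AL at 24 h. foxo had 107, 86.3 and 150 CPM in MB at 50 h and 154, 168 and 150 CPM in MB at 24 h. It rose 3.86-fold in AL (log2 difference 2.41 ± 0.32, adjusted p = 1.1e-06) and stayed below MB in every library. The TOR inhibitor gene scyl had a log2 difference of 1.51 ± 0.20 (adjusted p = 1.3e-06). The kinase gene Akt1, added after its values were seen, had one of 0.68 ± 0.18 (adjusted p = 0.03), and this call was lost when any of 5 of the 12 libraries was left out (log2 0.61 to 0.75). The list's median difference was -0.08, near the -0.02 of all genes, and the other 17 members, among them Tor, S6k, chico and Thor, did not pass. ImpL2, which encodes a secreted protein that binds insulin-like peptides, rose in MB (log2 2.63, adjusted p = 0.0048) and not in AL (0.11, adjusted p = 0.95), and its difference of -2.52 missed the threshold (adjusted p = 0.054).

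Of the Myc and ribosome biogenesis list, 2 of 23 genes were called (8.7%, against 2.42% of all genes): Mnt, which encodes a repressor that competes with Myc for its partner Max, and dm, which encodes Myc. Mnt had 651, 533 and 522 CPM in AL at 50 h and 256, 292 and 354 CPM in AL at 24 h. Mnt had 323, 235 and 256 CPM in MB at 50 h and 628, 510 and 481 CPM in MB at 24 h. It rose in AL and fell in MB (log2 difference 1.91 ± 0.25, adjusted p = 4.4e-06), and the order of the lineages turned round between 24 and 50 h. For dm the log2 difference was 0.97 ± 0.17 (adjusted p = 0.00027), made of a fall by 0.80 on the log2 scale in MB and an AL value of 0.17 that did not pass. The other 21 members, among them Max, had differences between -0.56 and 0.56 and did not pass.

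Of the 18 activin and BMP genes tested, which serve ligand reception and response, brk, tkv, shn and put were called, all with the higher change in AL (22.2%, against 2.42% of all genes). The type I receptor gene tkv had 217, 209 and 166 CPM in AL at 50 h and 56.5, 72.4 and 64 CPM in AL at 24 h. tkv had 135, 81.8 and 161 CPM in MB at 50 h and 230, 196 and 218 CPM in MB at 24 h. It rose 3.07-fold in AL and fell 1.71-fold in MB, with a log2 difference of 2.39 ± 0.31 (adjusted p = 1.8e-06). AL was below MB at 24 h in every library and above it at 50 h. The type II receptor gene put, added after its values were seen, had a log2 difference of 1.29 ± 0.30 (adjusted p = 0.0094), although neither of its own changes passed.

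The cofactor gene shn, which acts with the Smad protein Mad, had 517, 440 and 442 CPM in AL at 50 h and 248, 267 and 240 CPM in AL at 24 h. shn had 286, 235 and 342 CPM in MB at 50 h and 748, 590 and 613 CPM in MB at 24 h. Its log2 difference came to 2.07 ± 0.25 (adjusted p = 6.8e-07). It too rose in AL and fell in MB, and the lineages changed order without overlap. For brk, which encodes a repressor of BMP target genes, the log2 difference was 2.54 ± 0.31 (adjusted p = 2.2e-07), but the gene overlaps CG1677 on the other strand, which had 4.69 times its counts, so with an unstated strand setting the reads of the pair cannot be told apart. The activin receptor gene babo fell in both lineages (log2 -0.56 in AL and -0.64 in MB), and its difference of 0.08 did not pass. The ligand genes dpp, gbb, daw, myo and Actbeta and the Smad genes Mad, Med and Smox did not pass.

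Several regulators of neuroblast division and identity had higher AL changes of modest size. Of 26 cell cycle regulators, E2f, the transcription factor gene of S phase entry, and CycE, the G1/S cyclin gene, were called, with log2 differences of 1.22 ± 0.17 (adjusted p = 1.8e-06) and 1.25 ± 0.20 (adjusted p = 7.1e-05). CycE had 1067, 1140 and 1274 CPM in AL at 50 h and 537, 803 and 762 CPM in AL at 24 h. CycE had 525, 449 and 625 CPM in MB at 50 h and 853, 826 and 610 CPM in MB at 24 h. The lineages overlapped at 24 h and AL was above MB at 50 h. E2f and CycE made up 7.69% of the cell cycle list, against 2.42% of all genes. None of the 28 DNA replication genes and 36 mitosis genes passed, where that share of all genes would give fewer than 1 call in each list, and the median differences of these lists were 0.12 and -0.22.

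Of 17 neuroblast identity genes, noc, pros, lola and N were called, and of 17 asymmetric division genes baz, cno and numb, all higher in AL. These were 23.5% and 17.6% of their lists, against 2.42% of all genes. The gene pros encodes a homeodomain protein that ends self-renewal in daughter cells. It had 2207, 1967 and 1733 CPM in AL at 50 h and 1068, 1288 and 1194 CPM in AL at 24 h. pros had 1366, 1059 and 1369 CPM in MB at 50 h and 1486, 1556 and 1500 CPM in MB at 24 h. Its log2 difference was 0.99 ± 0.19 (adjusted p = 0.00063), and the call, like those of lola (0.67 ± 0.15), cno (0.87 ± 0.17) and grh, held with each of the 12 libraries left out. With limma on either TPM scale, however, 0 of the 17 identity genes, and so neither pros nor lola, and 1 of the 17 asymmetric division genes were called. In a fit of only the 12 compared libraries, 2 identity genes and 2 asymmetric division genes were called. The calls of noc (log2 1.08), baz (0.92), numb (0.71) and the Notch receptor gene N (0.61) were lost in 7, 5, 9 and 10 of the 12 fits that leave out 1 library, over ranges of 0.90 to 1.33, 0.77 to 1.07, 0.62 to 0.84 and 0.56 to 0.67. N was added after its values were seen. The identity list had a median difference of 0.59, with 14 of 17 members positive, while its median change was 0.17 in AL and -0.34 in MB. The 8 neuroblast markers summed to 4819 to 5378 CPM in AL at 50 h and 4577 to 5028 CPM in AL at 24 h, against 3073 to 3824 CPM in MB at 50 h and 4233 to 4552 CPM in MB at 24 h, and their part in the result was not tested.

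**Figure D3:**
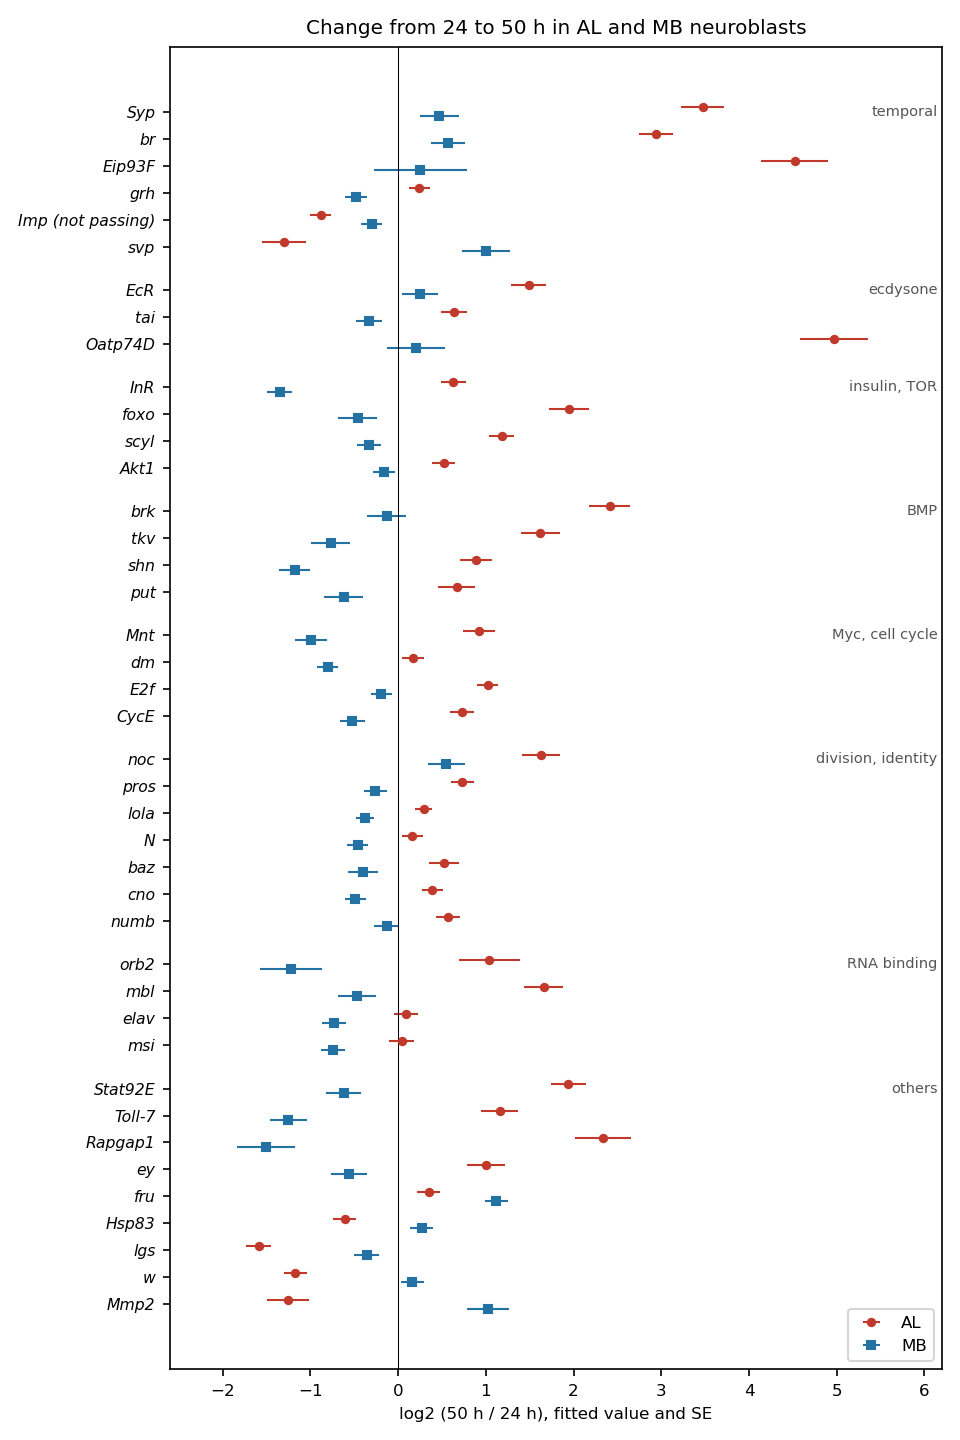
Fitted log2 changes from 24 to 50 h with their SE for 41 named genes in AL (circles) and in MB (squares directly under them), grouped by list, with n = 3 libraries per age and lineage. AL points lie to the right of MB points for most signalling, division and RNA-binding genes, and to the left for Imp, svp, fru, Hsp83, lgs, w and Mmp2.

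Of 29 RNA-binding protein genes, 4 were called, all higher in AL: orb2, mbl, elav and msi (13.8%, against 2.42% of all genes). The splicing factor gene mbl had 2363, 2118 and 2294 CPM in AL at 50 h and 489, 988 and 660 CPM in AL at 24 h. mbl had 1153, 901 and 1189 CPM in MB at 50 h and 1281, 1511 and 1710 CPM in MB at 24 h. On the log2 scale the difference was 2.14 ± 0.31 (adjusted p = 0.0003). The translation regulator gene orb2 had a difference of 2.26 ± 0.50 (adjusted p = 0.0043). For elav, a pan-neuronal marker that is also transcribed in neuroblasts, and for msi the differences of 0.82 ± 0.20 and 0.78 ± 0.19 came with falls in MB and AL values of 0.09 and 0.04 that did not pass. Without MB 50 h replicate 2 both calls were lost (log2 0.74 for elav and 0.72 for msi), and that of msi also without AL 50 h replicate 1 (0.73). Of 12 genes of newborn neurons and ganglion mother cells, pros and jumu were higher and fru lower (25%, against 2.42% of all genes), and the call of jumu, which encodes a forkhead factor (0.92 ± 0.22, adjusted p = 0.012), was lost without MB 24 h replicate 2 or MB 50 h replicate 2 (log2 0.79 to 1.06 over the 12 fits). The 11 neuron markers summed to 475 to 536 CPM in AL at 50 h and 525 to 577 CPM in AL at 24 h, against 393 to 541 CPM in MB at 50 h and 592 to 701 CPM in MB at 24 h, and their part in these values was not tested.

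Among 221 noncoding RNA genes tested, 4 were higher in AL and 1 lower, 2.26% of the list against 2.42% of all genes. CR43283, which the gene name table lists as the long noncoding RNA cherub, took 18.8% to 20.7% of gene counts in AL at 50 h and 8.27% to 11.9% in AL at 24 h, against 6.69% to 7.56% in MB at 50 h and 6.74% to 7.77% in MB at 24 h. Its log2 difference was 1.25 ± 0.23 (adjusted p = 0.0054). CR31386 (2.72 ± 0.51, adjusted p = 0.0054) and CR43459 (2.61 ± 0.52, adjusted p = 0.0029) were also higher. The first of these and CR43283 were added after their values were seen.

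The noncoding RNA pncr002:3R (2.28 ± 0.32, adjusted p = 0.00035) was 1 of 3 genes that rose in both lineages and rose more in AL. It had 476, 772 and 585 CPM in AL at 50 h and 39.3, 52.2 and 72.6 CPM in AL at 24 h. pncr002:3R had 898, 941 and 1052 CPM in MB at 50 h and 369, 411 and 476 CPM in MB at 24 h, so AL started lower and was still below MB at 50 h. The other 2, added after their values were seen, were Glycogenin, which encodes the primer of glycogen synthesis (log2 difference 1.28 ± 0.31, adjusted p = 0.02), and Gbs-76A, which encodes a glycogen-binding subunit of a phosphatase (2.55 ± 0.52, adjusted p = 0.0025). Gbs-76A had 39.8, 52.5 and 31.5 CPM in AL at 50 h and 3.63, 3.07 and 2.06 CPM in AL at 24 h. Gbs-76A had 80.2, 78.7 and 91.8 CPM in MB at 50 h and 41.8, 47.7 and 15.2 CPM in MB at 24 h. The call of Glycogenin was lost in 4 of the 12 fits that leave out 1 library, with log2 values of 1.02 to 1.62 over all 12. CR44024, for which the tables give no position, was lower in AL (-1.61 ± 0.29, adjusted p = 0.00035), with 134, 96.9 and 85.1 CPM in AL at 50 h and 363, 283 and 356 CPM in AL at 24 h. CR44024 had 56.5, 45.3 and 33.8 CPM in MB at 50 h and 42.4, 53.9 and 44.7 CPM in MB at 24 h.

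Lineage transcription factors were called in small numbers. The MB gene ey, a Pax6 homologue, had 36.7, 45.1 and 53.7 CPM in AL at 50 h and 18.9, 17.8 and 31.2 CPM in AL at 24 h. ey had 112, 108 and 127 CPM in MB at 50 h and 151, 215 and 147 CPM in MB at 24 h. It rose in AL, the MB value did not pass, and the difference was 1.56 ± 0.30 (adjusted p = 0.00088), 1 call among the 8 MB lineage factors (12.5%, against 2.42% of all genes). AL stayed below MB at both ages without overlap. Of 9 AL lineage factors 22.2% were called: oc was higher (2.36 ± 0.56, adjusted p = 0.028) and vnd lower, with 2 counts in all in AL at 50 h and 44 in AL at 24 h, a ratio of 25.2 between the AL ages (95% exact counting interval 6.56 to 214). The fitted difference of vnd, -4.95, depends on that small count, and both calls were lost in several fits that leave out 1 library (5 of 12 for oc, log2 1.87 to 2.76; 6 of 12 for vnd, log2 -7.40 to -3.62). In a fit of only the 12 compared libraries, 0 of the 9 AL lineage factors were called. Although both are on the AL list, oc and vnd were lower in AL than in MB at 50 h. There oc averaged 10.5 CPM in AL and 297 CPM in MB, and vnd had 2 counts in AL and 99 in MB. The homeobox gene Dr had 58.4, 92.2 and 84.7 CPM in AL at 50 h and 0.158, 4.46 and 1.20 CPM in AL at 24 h. Dr had 1.48, 1.23 and 1.68 CPM in MB at 50 h and 0.36, 0.214 and 1.66 CPM in MB at 24 h. This gave a log2 difference of 4.29 ± 1.06 (adjusted p = 0.017). Its call was lost without MB 24 h replicate 3, at a log2 difference of 3.07.

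The smallest adjusted p of all belonged to CG34380, which the gene name table lists as smal (chromosome 2L, 6179133 to 6211114). It had 70.2, 93.7 and 76.8 CPM in AL at 50 h and 57.2, 46.3 and 34.1 CPM in AL at 24 h. CG34380 had 10.7, 6.13 and 11.3 CPM in MB at 50 h and 153, 174 and 101 CPM in MB at 24 h. The MB level fell 15.3-fold and the log2 difference was 4.74 ± 0.38 (adjusted p = 5.5e-12). MB was above AL at 24 h and below it at 50 h, with no overlap at either age. Rapgap1, which encodes a GTPase-activating protein for Rap1, had 102, 101 and 126 CPM in AL at 50 h and 20.4, 31.3 and 12.9 CPM in AL at 24 h. Rapgap1 had 25.7, 9.31 and 22.5 CPM in MB at 50 h and 42.2, 70.4 and 50.8 CPM in MB at 24 h. The log2 difference was 3.85 ± 0.46 (adjusted p = 1.5e-07). It rose in AL and fell in MB, and the lineages changed order without overlap.

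Stat92E, the transcription factor gene of the JAK/STAT pathway, had 147, 190 and 180 CPM in AL at 50 h and 60.8, 41.8 and 31.6 CPM in AL at 24 h. Stat92E had 78.4, 57.1 and 81.5 CPM in MB at 50 h and 127, 110 and 96.9 CPM in MB at 24 h. Its log2 difference came to 2.57 ± 0.29 (adjusted p = 3.3e-08). Toll-7, which encodes a receptor with leucine-rich repeats, had 75, 68 and 116 CPM in AL at 50 h and 37.7, 31.5 and 46.7 CPM in AL at 24 h. Toll-7 had 112, 87.0 and 152 CPM in MB at 50 h and 335, 260 and 236 CPM in MB at 24 h. On the log2 scale the difference was 2.41 ± 0.29 (adjusted p = 2e-07). These 2 genes differ in where AL ended: above MB for Stat92E, and overlapping MB for Toll-7. The ferritin heavy chain gene Fer1HCH (1.66 ± 0.20, adjusted p = 1.8e-07), the chromatin gene tou (1.32 ± 0.16, adjusted p = 1e-07), SP1173 (2.23 ± 0.24, adjusted p = 1.2e-08) and CG30089 (3.24 ± 0.33, adjusted p = 5.9e-09) completed the 10 with the smallest p. The cell adhesion genes Nrg (0.81 ± 0.18, adjusted p = 0.004) and Sema-1a (0.75 ± 0.22, adjusted p = 0.046) fell in MB, and the call of Sema-1a, a gene added after its values were seen, was lost in 8 of the 12 fits that leave out 1 library (log2 0.65 to 0.84).

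Some of the highest fitted differences rested on few counts in one of the 4 groups. Gasp, which encodes a chitin-binding protein, had 4.58, 32.3 and 19.5 CPM in AL at 50 h and no count in AL at 24 h. Gasp had 1.18, 0 and 0.24 CPM in MB at 50 h and 0, 1.93 and 0.95 CPM in MB at 24 h. With a floor of 3 counts per library, its AL level was at least 38.9-fold higher at 50 h than at 24 h. It averaged 41.6 CPM in MB at 84 h. Trim9, which encodes a ubiquitin ligase known from axon guidance, had 1.72, 7.34 and 5.08 CPM in AL at 50 h and 0.789, 0 and 0.172 CPM in AL at 24 h. Trim9 had 15.7, 8.33 and 18.4 CPM in MB at 50 h and 43.8, 37.7 and 46.1 CPM in MB at 24 h. This gave a log2 difference of 5.37 ± 1.02 (adjusted p = 0.00063). CG8249 had 86 counts in AL at 50 h and 2 in AL at 24 h, a ratio of 37.6 (95% exact counting interval 10.1 to 315), and its call was lost in 9 of the 12 fits that leave out 1 library (log2 3.97 to 5.45). The transcription factor genes bowl (4.49 ± 1.09) and chn (3.44 ± 0.73), the kinase gene Sik3 (4.39 ± 0.90), CG10970 (4.15 ± 0.88) and Obp44a (4.16 ± 1.01) had adjusted p values from 0.0018 to 0.013. CG15822 (3.48 ± 0.93) passed narrowly and was lost in 11 of those 12 fits (log2 3.18 to 4.05). Of the neuronal genes, nAcRbeta-64B, which encodes a nicotinic receptor subunit (4.17 ± 1.00, adjusted p = 0.011), was lost without AL 50 h replicate 3 (2.92) or MB 24 h replicate 1 (3.83). VGlut, the vesicular glutamate transporter gene added after its values were seen, had 2 counts in all in MB at 50 h and 41 in MB at 24 h (a ratio of 16.5 between MB at 24 h and 50 h, 95% exact counting interval 4.29 to 141), with at most 6.90 CPM in a library. It was lost in 8 of 12 fits (log2 5.62 to 9.87).

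Among the 49 genes with the lower AL change, dysc, a neuronal gene that encodes a scaffold protein (chromosome 3L, 13878822 to 13896336), had 8.30, 8.08 and 3.12 CPM in AL at 50 h and 145, 147 and 227 CPM in AL at 24 h. dysc had 32.0, 22.1 and 24.2 CPM in MB at 50 h and 33.0, 34.7 and 43.9 CPM in MB at 24 h. It fell 26.6-fold in AL, lying above MB at 24 h and below it at 50 h, and the log2 difference was -4.22 ± 0.54 (adjusted p = 1.4e-06). Its AL mean at 36 h was 39.3 CPM. Toll-6, a receptor gene related to Toll-7, had 7.02, 8.38 and 4.82 CPM in AL at 50 h and 107, 38.9 and 42.6 CPM in AL at 24 h. Toll-6 had 36.4, 45.1 and 34.3 CPM in MB at 50 h and 21.4, 15.4 and 23.5 CPM in MB at 24 h. The log2 difference was -4.16 ± 0.87 (adjusted p = 0.0063). So these 2 Toll family genes had differences of opposite sign.

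CG12496 was the lower gene with the smallest p (-2.38 ± 0.24, adjusted p = 8.4e-08). It had 970, 1184 and 1058 CPM in AL at 50 h and 812, 566 and 830 CPM in AL at 24 h. CG12496 had 326, 444 and 396 CPM in MB at 50 h and 40.6, 52.4 and 61.0 CPM in MB at 24 h, a 7.59-fold rise in MB towards an AL level that was already high. The lipid phosphatase gene wun2 rose 4.54-fold in MB (-4.30 ± 0.77, adjusted p = 0.00057), with 0.716, 0.449 and 0.13 CPM in AL at 50 h and 2.84, 2.46 and 0.343 CPM in AL at 24 h. wun2 had 57.1, 70.6 and 56.1 CPM in MB at 50 h and 13.9, 8.13 and 18.5 CPM in MB at 24 h. The metalloproteinase gene Mmp2 fell 2.4-fold in AL and rose 2.03-fold in MB (-2.29 ± 0.34, adjusted p = 7.9e-06). It had 54.0, 68.7 and 38.9 CPM in AL at 50 h and 154, 120 and 113 CPM in AL at 24 h. Mmp2 had 78.1, 79.6 and 131 CPM in MB at 50 h and 39.5, 46.0 and 56.8 CPM in MB at 24 h, and the lineages changed order.

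Among other lower calls, the AL fall passed and the MB change did not for 3 named genes, lgs, w and Hsp83, with MB values of -0.36, 0.16 and 0.27 on the log2 scale. The Wingless pathway gene lgs fell 3.00-fold in AL (-1.22 ± 0.20, adjusted p = 7.1e-05), with 290, 251 and 207 CPM in AL at 50 h and 758, 742 and 746 CPM in AL at 24 h. lgs had 180, 117 and 176 CPM in MB at 50 h and 194, 214 and 199 CPM in MB at 24 h. The ABC transporter gene w had a difference of -1.33 ± 0.18 (adjusted p = 2.3e-06) and the chaperone gene Hsp83 one of -0.88 ± 0.18 (adjusted p = 0.0033), both with a fall in AL. For others the MB rise passed and the AL change did not: the zinc finger gene fru (-0.77 ± 0.19, adjusted p = 0.012) had 807, 669 and 712 CPM in AL at 50 h and 469, 637 and 614 CPM in AL at 24 h. fru had 450, 412 and 453 CPM in MB at 50 h and 161, 232 and 213 CPM in MB at 24 h, and the call was lost without MB 24 h replicate 1 (-0.63). The cotransporter gene Ncc69 (-1.17 ± 0.23, adjusted p = 0.0012) also rose in MB. Scaling by spike-in turned the signs of lgs, w, Hsp83, fru and Ncc69 to positive values below the median gene.

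Several of the remaining lower calls were lost in fits that leave out 1 library or rested on a few counts. Cpr76Bc, a cuticle protein gene, rose in MB (-5.56 ± 1.16, adjusted p = 0.0078) and was lost without AL 24 h replicate 1 (-3.39). The cytochrome P450 gene Cyp28a5 had 1 count in AL at 50 h and 37 in AL at 24 h, a ratio of 42.3 between AL at 24 h and 50 h (95% exact counting interval 7.14 to 1716). GstD4, added after its values were seen, had 2 counts in AL at 50 h and 106 in AL at 24 h, a ratio of 60.6 (16.4 to 507), against 7 counts in MB at 50 h and 0 in MB at 24 h, and was lost in 7 of the 12 fits that leave out 1 library. The guidance gene comm2 was lost in 9, CG12082 in 4, Dmn in 4 and the proteasome gene Rpn1 (-0.80) in 10 of these fits, over log2 ranges of -4.16 to -2.08, -2.30 to -1.69, -2.16 to -1.42 and -0.90 to -0.70. For pall and agt, lost in 9 and 4 fits (log2 -2.05 to -1.43 and -2.91 to -2.28), an overlapping gene on the other strand, Jarid2 or twr, had 4.22 or 3.51 times their counts.

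Sorted by which of its own changes passed, the group of 201 genes held 83 that rose in AL with no passing change in MB, 60 that fell in MB with no passing change in AL, 28 that rose in AL and fell in MB, 3 that rose in both and 27 with neither. The group of 49 held 19 that fell in AL, 16 that rose in MB, 2 with both, Mmp2 and svp, and 12 with neither. These classes share libraries with the difference that selected the genes and describe it only. At 50 h, AL and MB differed for 1170 of all genes (11.3%), with AL higher for 6.39% and lower for 4.94%. At 24 h they differed for 1120 (10.8%), with AL higher for 4.75% and lower for 6.1%. Of the 201 genes, 75 differed between lineages at 24 h only, 68 at 50 h only, 32 at both ages with AL below MB at 24 h and above it at 50 h, 11 at both with AL lower, 6 at both with AL higher and 9 at neither. Of the 49, 21 differed at 50 h only, 12 at 24 h only and 5 at both with AL above MB at 24 h and below it at 50 h (dysc, w, Mmp2, Kr and CG31100). CG31100 was named after its values were seen.

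Libraries outside the comparison placed these changes in time. Of the 114 called genes that rose in AL, 91 (79.8%) had an AL mean at 36 h between those at 24 and 50 h, near the 79.6% of all 255 genes that rose in AL. Of the 21 called genes that fell in AL, 20 (95.2%) had such an intermediate mean, against 76.4% of all 127 genes that fell in AL. Of the 83 that rose in AL with no passing change in MB, 73 (88%) were still above their AL 24 h mean in AL at 84 h (89% of all 255), while 23 (27.7%) had an MB mean at 84 h at or above the AL mean at 50 h, against 37.6% of all 255. The MB mean at 84 h was above that at 24 h for 21 of the 83 (25.3%), against 53.3% of all 255. These 83 were chosen by a lack of a passing MB rise, which bears on both shares. Syp, br, Eip93F and EcR had a higher MB mean at 84 h than at 50 h, and of these only br came near its AL 50 h mean. Of the 60 that fell in MB with no passing change in AL, 38 (63.3%) had an AL mean at 84 h below that at 24 h, against 77% of all 235 genes that fell in MB. These 60 were chosen by a higher AL change and a lack of a passing AL fall, which bears on this share.

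Glycolysis genes break down glucose to pyruvate. Of the 13 tested, 7 rose in AL, where 2.47% of all genes rose, and 11 rose in MB, where 1.27% did. The median changes were 0.67 and 1.26 on the log2 scale, and 12 of 13 differences were negative with a median of -0.36. Only Pgi, the gene of glucose-6-phosphate isomerase, passed on its own, with 26.6, 36.8 and 53.1 CPM in AL at 50 h and 41.2, 53.5 and 67.1 CPM in AL at 24 h. Pgi had 92.0, 153 and 95.1 CPM in MB at 50 h and 46.3, 69.8 and 50.8 CPM in MB at 24 h. Its log2 difference came to -1.50 ± 0.37 (adjusted p = 0.014). This call was lost without AL 24 h replicate 3, AL 50 h replicate 1 or MB 50 h replicate 2, with log2 values from -1.79 to -1.21 over the 12 fits. The aldolase gene Ald had almost equal changes (1.62 in AL and 1.63 in MB), while the phosphofructokinase gene Pfk (0.61 and 1.54, difference -0.93, adjusted p = 0.21) and Pglym78 (0.33 and 1.08, difference -0.75, adjusted p = 0.069) did not pass. The lactate dehydrogenase gene ImpL3 rose in MB (log2 3.51, adjusted p = 0.0063), the AL value of 1.29 did not pass, and neither did the difference of -2.22 (adjusted p = 0.3). With the spike-in scalings the list's median difference was 1.02 or 1.30, against 1.42 or 1.66 for all genes.

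**Figure D4:**
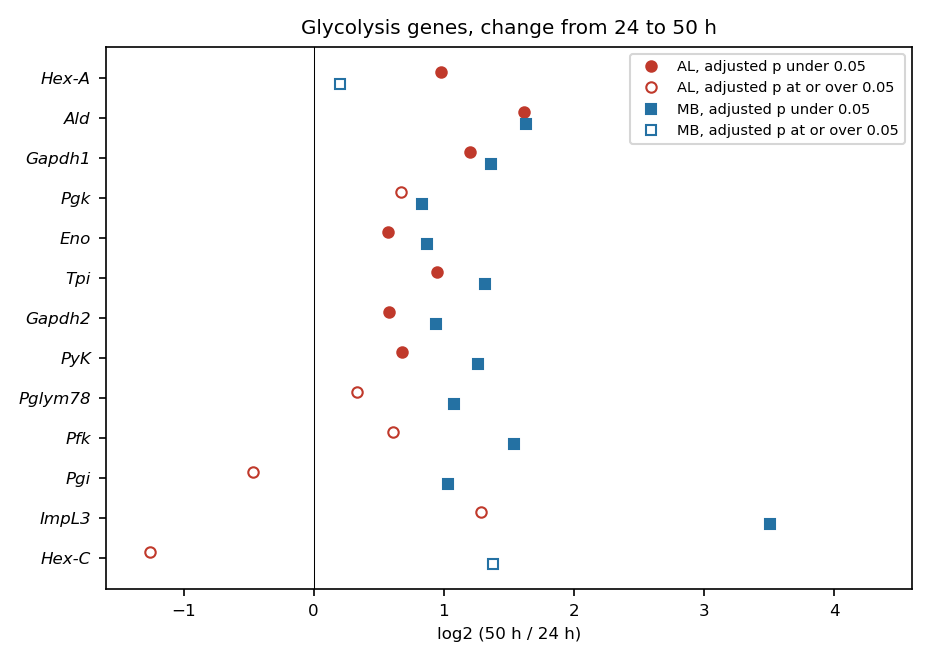
Fitted log2 change from 24 to 50 h of the 13 glycolysis genes in AL (circles) and in MB (squares directly under them), with filled symbols for changes that passed an adjusted p of 0.05 in their own test. MB points lie to the right of AL points for 12 of the 13 genes, and 11 MB changes and 7 AL changes passed.

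Several lists, those of housekeeping genes among them, held no called gene. None of 89 cytoplasmic ribosomal protein genes, 72 mitochondrial ribosomal protein genes, 25 oxidative phosphorylation genes, 21 tRNA synthetase genes, 31 chromatin regulators, 13 Hedgehog pathway genes, 11 E(spl) genes that respond to Notch, 15 cell death genes, 7 dosage compensation genes and 13 actin and tubulin genes was called, where 2.42% of all genes were. Their median differences ran from -0.31 for Hedgehog, actin and tubulin genes to 0.17 for chromatin regulators. Nor was any of 14 glia, 10 haemocyte and 6 fat body markers or 8 Sox genes called, with medians of 0.00, -0.88, -0.40 and 0.51. At a share of 2.42%, even the ribosomal protein lists would give only a few calls, so a lack of calls says little for any of these lists. The median changes of cytoplasmic ribosomal protein genes were -0.28 in AL and -0.22 in MB. A gene that missed the threshold is not shown to change alike in the 2 lineages.

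**Figure D5:**
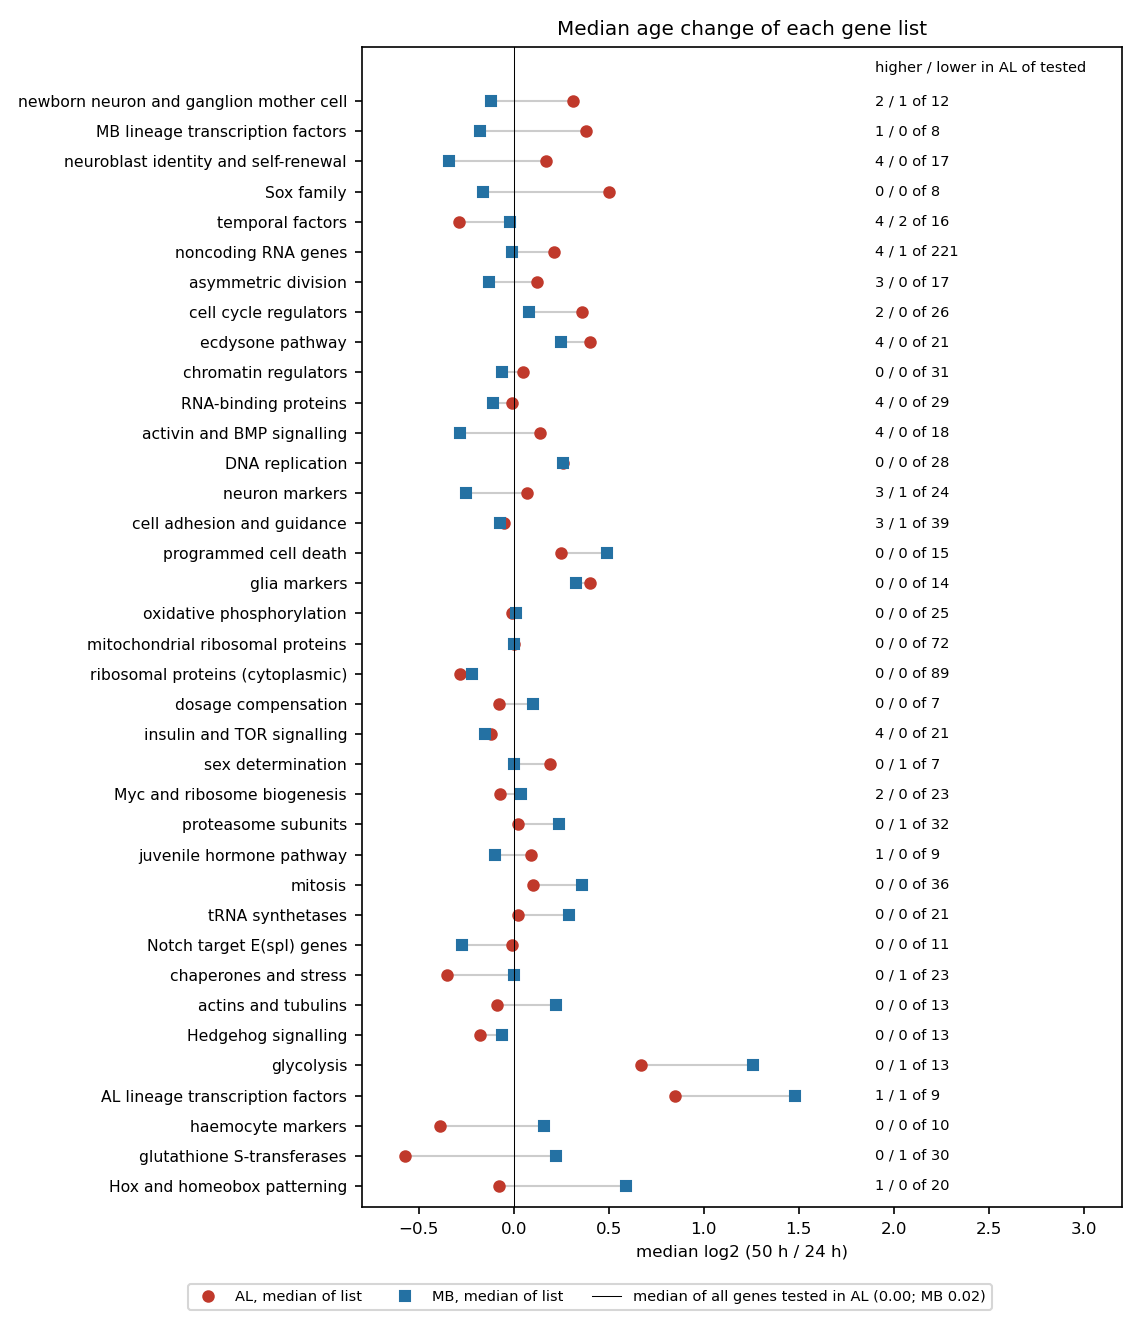
Median log2 change from 24 to 50 h of each gene list with at least 7 genes tested, in AL (circles) and MB (squares), ordered by the median difference, with the numbers of genes called higher and lower in AL at the right. Glycolysis genes lie to the right of 0 in both lineages with the MB median above the AL median, and neuroblast identity genes lie on opposite sides of 0.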

How the data were processed

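RNA of about 100 pooled neuroblasts per library was amplified and sequenced, per the labels' protocols. The authors deposited 1 table of counts per gene and 1 table of TPM values with gene positions on build dm3. Per the submitters' processing notes, the tools were STAR 2.4.0i, Bowtie2 2.1.0, HTSeq 0.6.1p1, cutadapt 1.7.1 and CASAVA, with builds mm10 and dm3. The role of each, and the counting's strand setting, were not given in the sources used here. Amplification without molecular identifiers means that counts are not independent molecules.

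Gene counts as deposited were tested with edgeR 4.0.16 (R 4.3.3; TMM factors, its filter on low counts, robust quasi-likelihood test) over all 24 libraries with 1 mean for each of the 8 groups. P-values were adjusted by Benjamini-Hochberg over the 10324 genes tested and called under 0.05. Spike-in rows (92), summary rows (5) and 1 row without a gene name, at most 0.000179% of counts in a library, were left out of library sizes. Standard errors were taken as the log2 value divided by the square root of F. Alternatives used DESeq2 1.42.0, limma 3.58.1 on the deposited TPM values (authors' values, log2 with a pseudocount of 1 or 0.1), other filters and scalings, thinned counts, a replicate block and each of the 12 libraries left out.

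Named genes were the 15 highest and 15 lowest called differences and the 10 smallest p per direction at 10 CPM or more in at least 1 of the 4 groups, all tested temporal factors, and up to 3 called members of each list (or the member with the smallest p). Others are marked as added after their values were seen. The genes and the 38 lists were chosen with earlier results of these data known. Of the list entries, 10 matched no gene row. Sequences are not shown.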

Additional observations from a re-analysis of the deposited data

Results flagged for a closer look

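The difference between the lineages was itself the test of each gene, so all 201 genes with the higher AL change and all 49 with the lower one differed between groups under the same contrast. The named genes below had, in addition, both of their own changes past the threshold in opposite directions. A rise in AL with a fall in MB was found for Rapgap1 (log2 difference 3.85), Toll-7 (2.41), tkv (2.39), SP1173 (2.23), shn (2.07), InR (1.97), Mnt (1.91), Fer1HCH (1.66), tou (1.32) and CycE (1.25). A fall in AL with a rise in MB was found for Mmp2 (-2.29) and svp (-2.29). Both values of each gene share libraries with the difference.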

How the results depend on the processing

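Of the 250 calls, 250 kept their sign under each setting that left the scaling to gene counts or TPM and tested them all, and 237 of 237 with a filter at 10 CPM. As the genes were selected on these same libraries, this was largely given. Of the 250, 242 were still called with DESeq2, and 119 and 117 with limma on log2(TPM + 1) and log2(TPM + 0.1). A fit of only the 12 compared libraries called 226 genes, 201 of them among the 250. Without MB 50 h replicate 2, 167 of the 250 were still called. The total of calls was 384 with DESeq2 and 418 without a filter (133 lower in both), 146 and 139 with limma on log2(TPM + 1) and log2(TPM + 0.1) (96 and 89 higher), and 3802 and 4913 with spike-in scaling with and without cell number (3757 and 4869 higher). With these 2 scalings the MB change passed for 3573 and 4369 genes and the 24 h comparison of lineages for 4089 and 4401; the AL change passed for 745 without cell number and the 50 h comparison for 710 with it. With limma the MB change passed for 215 and 223 genes. Leaving out 1 library gave 172 to 252 calls in all, 142 to 195 higher, 30 to 59 lower, 140 to 405 for the MB change, 762 to 1235 at 50 h and 833 to 1135 at 24 h; the lowest count was without MB 50 h replicate 2 except at 24 h (MB 24 h replicate 2). Of 85 named calls, 58 held in all 12 such fits. Apart from the construction of these settings, the cause was not tested.

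Spike-in scaling with and without cell number reversed lin-28 (1.40 and 1.63), roX1 (1.11 and 1.37), sti (1.06 and 1.30), CoIV (1.05 and 1.29), alphaTub84B (1.01 and 1.24), Imp (0.84 and 1.08), Aats-lys (0.84 and 1.06), ptc (0.78 and 1.01), fru (0.67 and 0.90), Rpn1 (0.65 and 0.90), RpL38 (0.60 and 0.85), Hsp83 (0.56 and 0.80), Rfabg (0.37 and 0.66), Ncc69 (0.28 and 0.53), lgs (0.19 and 0.43) and w (0.11 and 0.36), and without cell number Sox102F (0.14), Pgi (0.24) and CR44024 (0.06). All lie below the median gene (1.42 and 1.66). The uncalled lin-28 turned to 0.01 without a filter, and nub to -0.19 on log2(TPM + 0.1) and -1.93 with thinned counts. Leaving out 1 library moved nub over -2.27 to 3.26, lin-28 over -0.26 to 0.35 and pdm2 over -2.43 to 2.97.

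With the replicate number as a block, 251 genes were called, 235 of them shared with the 250. Same-numbered libraries of different groups deviated together by r of -0.0508 to 0.0667 over 18 pairs, and differently numbered ones by -0.0602 to 0.0522 over 36, so the numbers give no pairing.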
